A study of Mus musculus with 2 samples.

Results

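Sialic acids are the acidic sugars that end many glycan chains on proteins and on the membrane lipids called gangliosides. The 9 genes described here add them, remove them or prepare them for use: the sialidases Neu1, Neu3 and Neu4, the sialyltransferases St3gal5, St8sia1, St8sia2, St8sia4 and St6gal1, and the synthetase Cmas. They were chosen by name, 9 of the 32285 genes in the count tables, and all 9 passed the filter on low counts and were tested. Neu4 is also a marker that the study itself chose for its tumor cells, on a merged set that held these libraries among others, so its level there is not independent evidence.

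The measurements were single-cell RNA sequencing of optic nerves from Nf1OPG mice on a C57BL/6 background at 12 weeks of age. These mice carry 1 mutant and 1 floxed Nf1 allele (Nf1flox/mut), with Cre recombinase driven by the GFAP promoter, so that every cell has the germline mutant allele and cells of the GFAP lineage also lose the floxed one; low-grade optic gliomas form in the prechiasmal nerve and chiasm. There were 2 libraries, named C-ON and FMC_new, each a pool of 10 mice that received no treatment named in the labels. Both have the genotype NF1-OPG, no library from mice without the glioma was analysed here, and what the word control in the title of C-ON refers to was not given in the sources used here, so the libraries were taken as replicates 1 and 2 of 1 group.

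Sialyltransferases work in the Golgi apparatus and need sialic acid in its activated form, which Cmas makes by joining it to cytidine monophosphate in the nucleus. St3gal5 makes the ganglioside GM3, St8sia1 adds a further sialic acid to GM3 to make GD3, a ganglioside long used to mark glial progenitors, and St8sia2 and St8sia4 build long polysialic acid chains, mainly on the neural cell adhesion molecule NCAM. St6gal1 caps the galactose of N-linked glycans and makes the ligand that the B cell lectin CD22 binds. Sialidases act in reverse: Neu1 in the lysosome, in a complex with cathepsin A, Neu3 at the plasma membrane with gangliosides as its main substrates, and Neu4 on membranes inside the cell, where polysialic acid is among its substrates. Polysialic acid is known from migrating oligodendrocyte precursors and is lost as these cells mature.

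The promoters of 4 members are shown because these are the genes whose calls in oligodendrocyte precursor (OPC)-like cells held under each of the 14 alternative analyses, Neu4, St8sia1 and St3gal5 as higher and St8sia4 as lower. Among these alternatives, 1 left out a single cell of no tested class and so could not change a call. Each run is the 250 bases before the RefSeq start of the gene on assembly GRCm38.p6 (mm10), written 5′ to 3′ on the strand of the gene, with matches to the E-box motif CANNTG, which reads the same on both strands and is bound by basic helix-loop-helix factors, in capitals.
Neu4, chr1:94020243-94020492, plus strand: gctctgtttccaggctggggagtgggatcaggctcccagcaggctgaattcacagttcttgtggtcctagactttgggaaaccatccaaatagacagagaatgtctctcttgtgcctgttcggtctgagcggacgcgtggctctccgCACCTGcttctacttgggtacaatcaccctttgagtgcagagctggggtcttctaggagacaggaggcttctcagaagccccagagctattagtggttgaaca
St8sia1, chr6:142964453-142964702, minus strand: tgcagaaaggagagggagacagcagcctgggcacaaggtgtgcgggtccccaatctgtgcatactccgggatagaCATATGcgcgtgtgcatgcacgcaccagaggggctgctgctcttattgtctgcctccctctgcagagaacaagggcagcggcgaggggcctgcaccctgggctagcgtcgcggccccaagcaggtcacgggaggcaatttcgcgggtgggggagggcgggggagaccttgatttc
St3gal5, chr6:72097358-72097607, plus strand: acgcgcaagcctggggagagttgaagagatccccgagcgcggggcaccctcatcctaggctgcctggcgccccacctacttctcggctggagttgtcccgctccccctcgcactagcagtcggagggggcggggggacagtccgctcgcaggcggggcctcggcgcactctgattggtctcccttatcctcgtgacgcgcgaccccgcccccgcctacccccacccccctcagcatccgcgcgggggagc
St8sia4, chr1:95667595-95667844, minus strand: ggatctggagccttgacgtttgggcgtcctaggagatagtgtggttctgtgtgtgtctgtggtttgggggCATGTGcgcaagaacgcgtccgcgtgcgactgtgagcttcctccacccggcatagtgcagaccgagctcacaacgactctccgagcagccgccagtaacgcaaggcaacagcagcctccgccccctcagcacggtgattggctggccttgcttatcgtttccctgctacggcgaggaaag
Neu4 held 1 match (CACCTG), St8sia1 1 (CATATG) and St8sia4 1 (CATGTG), while St3gal5 held 0. Of 32817 mouse promoters of this length, 66.2% held at least 1 such match, so the members did not stand out by it. The letters AACAAT, the core bound by SOX factors, and TATAAA, the TATA box, were searched on both strands and were found in none of the 11 promoter windows of the 9 members, against 9.42% and 12.4% of all promoters. GC content was 53.6% for Neu4, 63.6% for St8sia1, 60.4% for St8sia4 and 71.6% for St3gal5, beside a median of 52.4% and quartiles of 45.2% and 61.2% over all promoters.

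In the mm10 annotation (GENCODE), Neu4 lies at chr1:94020451-94028334 and St8sia4 at chr1:95587682-95667571, while St8sia1 (chr6:142821545-142964452) and Cmas (chr6:142756686-142775714) are neighbours on chromosome 6, which also holds St3gal5 (chr6:72097592-72154571). Neu3 (chr7:99811439-99828417) and St8sia2 (chr7:73939119-74013690) are on chromosome 7, St6gal1 (chr16:23224740-23360350) is on chromosome 16 and Neu1 (chr17:34931253-34935953) is on chromosome 17. Other annotated transcripts overlap St8sia1, St8sia2, St8sia4, St3gal5 and St6gal1, among them 4933431G14Rik antisense to St3gal5. St8sia2, St8sia4 and St3gal5 have an overlap on the same strand, whereas St8sia1 and St6gal1 have one on the other strand only. How reads from the overlaps were assigned was not tested.

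After filtering, 8832 of 10845 barcodes of C-ON and 16817 of 21341 of FMC_new were kept, with medians of 6812 and 4676 unique molecular identifiers (UMIs, counts of captured RNA molecules) per cell and 85101211 and 129113325 UMIs in all barcodes. Of 36 clusters, 30 were named from marker genes and formed 17 classes; 1469 cells stayed unnamed, and 14 classes had at least 20 cells in both libraries and entered the test. Oligodendrocyte-like cells made up 64.9% of C-ON and 14.6% of FMC_new. The libraries also differed in pituitary content, with 19 pituitary endocrine-like cells kept in C-ON and 1727 in FMC_new. Growth hormone (Gh), a pituitary product, had 1 UMI in C-ON but took 2.49% of all UMIs in FMC_new. Of these Gh UMIs, 1277140 lay inside the pituitary endocrine-like cells of FMC_new. Gh was also found outside them, in 99.7% of B cell-like cells of FMC_new, which was read as free RNA. The 2 libraries shared 296 barcodes, 188 of them among kept cells. The class labelled OPC-like had 215 cells in C-ON and 1365 in FMC_new. A UMI of Gpr17, which the study chose beside Neu4 as a tumor marker, was in 47.9% and 41.5% of its cells. The class was not compared with the study's own tumor cluster. All 8 of its markers, among them Pdgfra and Cspg4, were counted in both of its clusters. Neoplastic cells and other precursors were not told apart here. The neuron-like class, 35 cells in C-ON and 20 in FMC_new, was named on only 3 markers, Snap25, Syt1 and Stmn2. In it, 4 markers of the pituitary endocrine list were counted as well. Its leading genes held Stmn2 but were headed by Avp, Nms and Prokr2, and where these cells came from was not tested.

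Levels below are the UMIs of a gene relative to all UMIs of a class, in CPM (the usual per-1000000 scale), C-ON first and FMC_new second, with exact Poisson 95% intervals that cover counting error only; a share of cells with a UMI has an exact Clopper-Pearson interval. Since the reads tag 1 end of each transcript, levels were compared between cells and not between genes. A gene was called higher or lower in a class where edgeR's quasi-likelihood test of the class against the mean of the other classes gave a Benjamini-Hochberg adjusted p under 0.05 over 14889 genes; fold changes are log2 values ± standard error. The classes came from other genes of the same cells, and p-values measure only the spread between these 2 pools. In the fitted model, a gene at 0 in both libraries of some class has no finite mean over the others where that class is among them. Neu4 and St8sia2 could therefore be called higher but not lower, a lower call of Neu3 was open only in migratory dendritic cell-like cells and of St8sia1 only in ILC2-like cells, and the fitted fold of these 4 genes depends on the prior count. Over all 14 classes, 51 of 126 pairs of member and class were called, 36 higher and 15 lower, beside 5.64% to 31.7% of all genes called higher and 1.81% to 19.2% called lower in a single class. The called direction was present in both libraries in 45 of the 51.

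**Figure D1:**
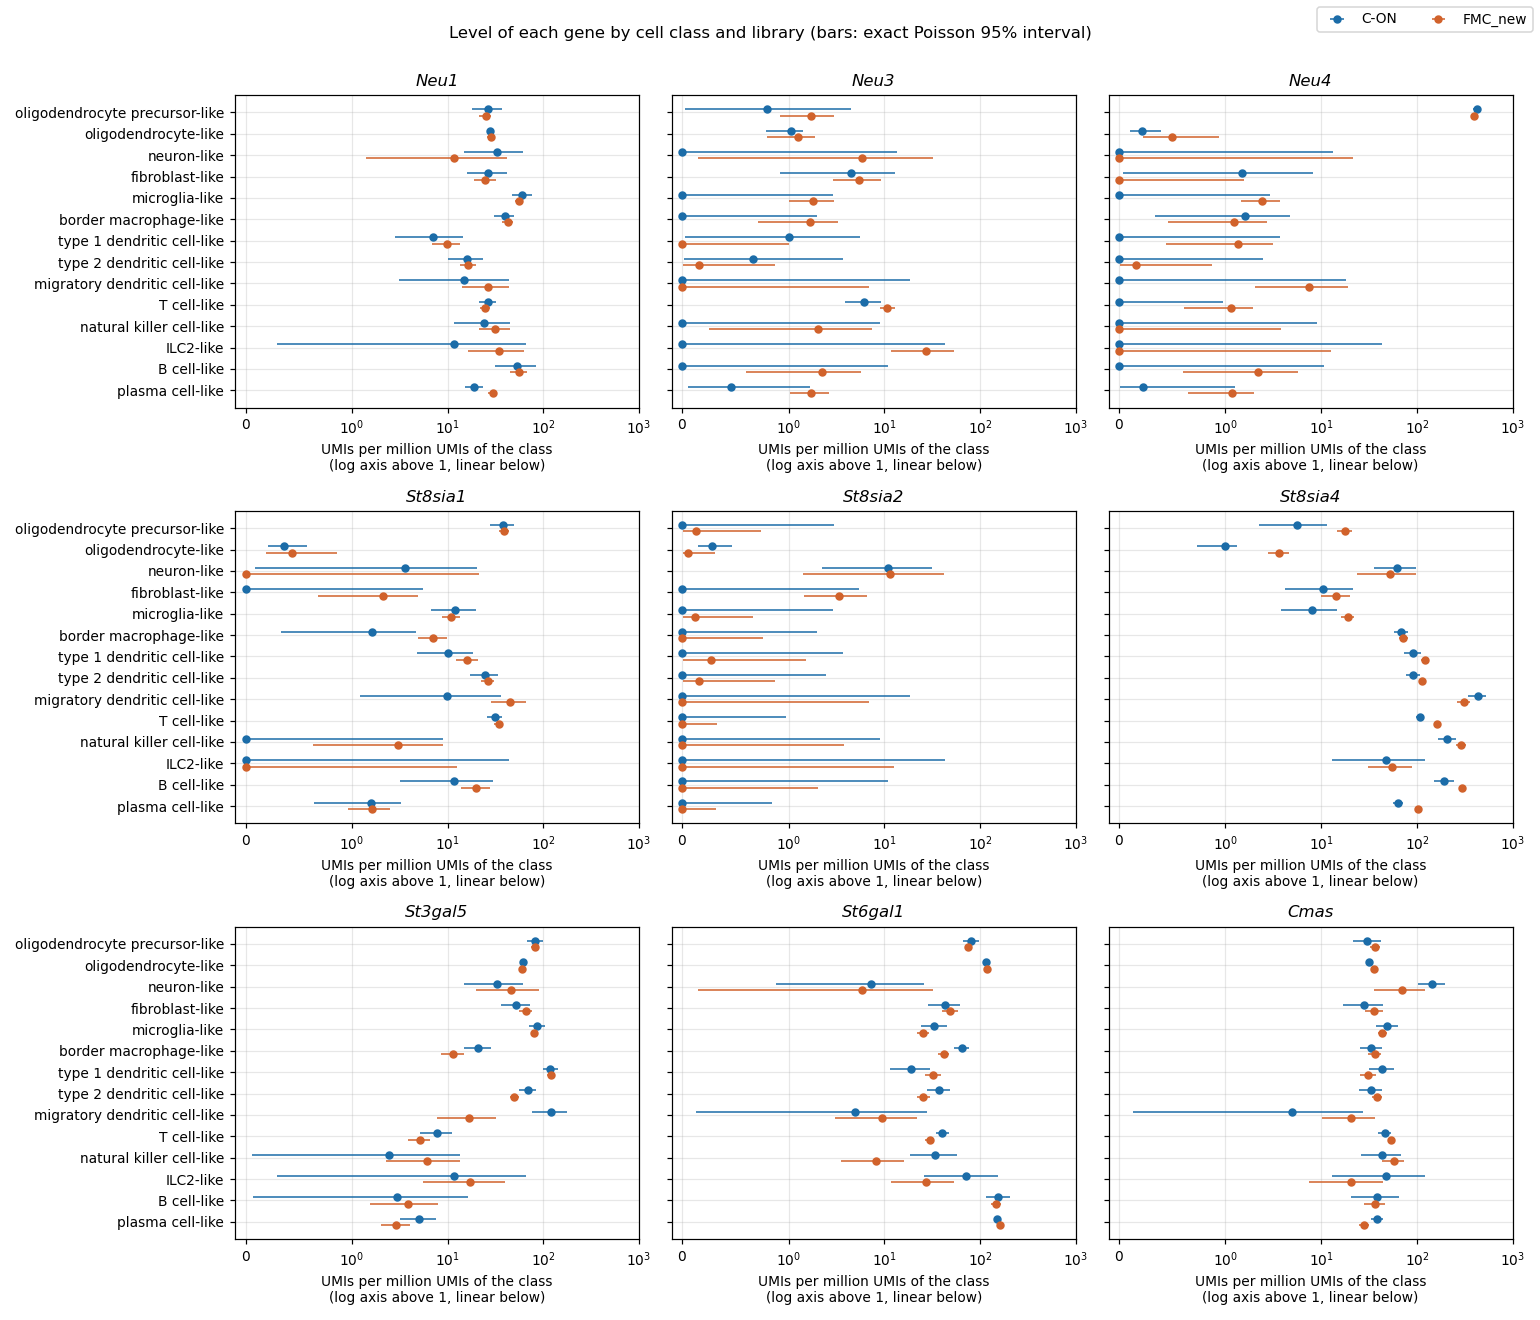
Level of each member (CPM; the axis is logarithmic above 1 CPM and linear below) in every cell class, with 1 point for each library and bars for the exact Poisson 95% interval. Neu4 stood at 424 and 396 CPM in OPC-like cells and at or under 7.48 CPM in each other tested class, whereas Cmas was measured in every tested class.

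Neu4 was high in OPC-like cells and low in each other tested class. In OPC-like cells it had 530 UMIs in C-ON, or 424 CPM (389 to 462), and 2985 in FMC_new, or 396 CPM (382 to 410), and the intervals of the libraries overlap. A Neu4 UMI was found in 76.3% of OPC-like cells of C-ON and 65.8% of FMC_new; at an equal depth of 1000 UMIs per cell these shares were 34.6% and 29.4%. The T cell-like class, which should lack the gene, held it in 0 of 975 cells of C-ON, which, at 3 counts of the total, allows a share of cells with a UMI of up to 0.308% (Clopper-Pearson upper bound 0.378%), and in 0.376% of 3196 cells of FMC_new, at median depths of 3244 and 3130 UMIs beside 5313 and 5325 in OPC-like cells. Oligodendrocyte-like cells had 10 UMIs (0.211 CPM) and 9 UMIs (0.493 CPM). Migratory dendritic cell-like cells had 0 UMIs in C-ON and 7.48 CPM in FMC_new, from 4 UMIs. Neu4 was listed at 0 in both libraries in ILC2-, natural killer (NK) cell- and neuron-like cells. Its fold change in OPC-like cells was 9.60 ± 0.294 (edgeR, adjusted p = 9.13e-14), and it was called in no other class.

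Neu1, the lysosomal sialidase, was counted in every class, and among the tested classes it was highest in microglia- and B cell-like cells. Microglia-like cells had 60.4 CPM (76 UMIs) and 56.1 CPM (470 UMIs), with a fold change of 1.26 ± 0.175 (edgeR, adjusted p = 9.67e-06). B cell-like cells followed at 52.7 and 55.2 CPM, with a fold change of 0.93 ± 0.215 (edgeR, adjusted p = 0.00497), and border macrophage-like cells at 39.3 and 42.5 CPM, with 0.77 ± 0.183 (edgeR, adjusted p = 0.00337); both of these calls were lost with cells thinned to 1000 UMIs and in limma, whereas the call in microglia-like cells held under every alternative. Type 2 dendritic cell-like cells had 15.9 and 16.3 CPM and were not called (-0.49, edgeR, adjusted p = 0.121). The lowest levels, 7.04 and 9.79 CPM, were in type 1 dendritic cell-like cells, called lower with a fold change of -1.47 ± 0.264 (edgeR, adjusted p = 0.00025), a call lost with thinned cells. The order of microglia- and B cell-like cells differed by less than their counting intervals. In plasma cell-like cells the fitted Neu1 value was 1.34 ± 0.17 (edgeR, adjusted p = 3.08e-06), but with library sizes left without TMM factors it was -0.12, and its CPM of 18.9 and 29.7 did not stand above the other classes. OPC-like cells had 26.4 and 24.9 CPM of Neu1, close to 27.7 and 28.5 CPM in oligodendrocyte-like cells; the call of lower there (-0.57 ± 0.208, edgeR, adjusted p = 0.0308) was lost under 7 of 14 alternatives, and the class lay 0.14 above the mean log2 level of the others in C-ON and 0.10 below it in FMC_new (-0.1033).

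Neu3, which trims gangliosides at the cell surface, was sparse, with 85 UMIs in all kept cells of C-ON and 281 in FMC_new. T cell-like cells held 23 of these UMIs (6.08 CPM) and 122 (10.7 CPM), and the gene was called higher there at 3.01 ± 0.501 (edgeR, adjusted p = 0.000112), a call lost in limma (adjusted p up to 0.0763 over the alternatives). Within them, clusters 7, 20 and 10 had 18.1, 13.4 and 12.4 CPM in FMC_new, against 3.39 CPM in cluster 2. ILC2-like cells (group 2 innate lymphoid cells) were called higher at 4.09 ± 0.985 (edgeR, adjusted p = 0.012), on 0 UMIs in C-ON and 8 UMIs in FMC_new, so this call rests on 1 library. In OPC-like cells Neu3 had 1 and 13 UMIs, or 0.80 and 1.72 CPM.

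St3gal5, the GM3 synthase that opens the ganglioside series, was called higher in 7 classes and lower in 4. Type 1 dendritic cell-like cells had 119 and 120 CPM, with a fold change of 2.70 ± 0.234 (edgeR, adjusted p = 2.41e-08). Microglia-like cells had 85.8 and 79.9 CPM (fold change 1.91 ± 0.242, edgeR, adjusted p = 3.08e-06) and OPC-like cells 82.4 (103 UMIs) and 81.5 CPM (615 UMIs; fold change 1.35 ± 0.25, edgeR, adjusted p = 0.000157). Microglia- and OPC-like cells, of unlike origin, thus lay side by side with overlapping counting intervals, below type 1 dendritic cell-like cells. Type 2 dendritic cell-like cells (68.9 and 50.01 CPM), oligodendrocyte-like cells (61.8 and 59.5 CPM) and fibroblast-like cells (51.9 and 65.4 CPM) were also called higher, at 1.604, 1.22 and 1.06. In migratory dendritic cell-like cells the call (1.32 ± 0.418, edgeR, adjusted p = 0.0318) rests on C-ON, with 119 CPM from 24 UMIs against 16.8 CPM from 9 UMIs in FMC_new. Classes called lower were lymphoid: B cell-like cells had 2.93 and 3.87 CPM (-3.04), NK cell-like cells 2.42 and 6.12 CPM (-2.74), T cell-like cells 7.67 and 5.11 CPM (-2.28) and plasma cell-like cells 5.02 and 2.87 CPM (-1.52). ILC2-like cells, also lymphoid, had 11.8 and 17.1 CPM and were not called (-0.78). Of these 4 lower calls, that in T cell-like cells held under every alternative and the other 3 were lost only with cells thinned to 1000 UMIs.

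St8sia1, the GD3 synthase one step further, was called higher in 7 classes. OPC-like cells had 37.6 CPM (47 UMIs) and 38.8 CPM (293 UMIs), with a fold change of 2.81 ± 0.321 (edgeR, adjusted p = 6.81e-07), and held a UMI in 17.9% of cells over both libraries. T cell-like cells had 31.2 and 34.1 CPM (2.99 ± 0.297, edgeR, adjusted p = 2.28e-07) and type 2 dendritic cell-like cells had 24.5 and 26.3 CPM (2.98 ± 0.329, edgeR, adjusted p = 8.56e-07). Migratory dendritic cell-like cells had 9.93 CPM from 2 UMIs and 44.9 CPM from 24 UMIs and were called higher at 3.20 ± 0.517 (edgeR, adjusted p = 0.000128), a call lost with thinned cells (0.59, edgeR, adjusted p = 1). B cell-like cells (11.7 and 19.9 CPM), type 1 dendritic cell-like cells (10.1 and 16.0 CPM) and microglia-like cells (11.9 and 10.9 CPM) were called higher with smaller fold changes of 1.87, 1.94 and 1.42, and each of these 3 calls was lost under at least 2 alternatives. Oligodendrocyte-like cells had 17 and 8 UMIs, or 0.359 and 0.438 CPM, and ILC2-like cells were listed at 0. With limma, where a lower call was possible, St8sia1 was called lower in 5 classes, namely fibroblast-, ILC2-, NK cell-, neuron- and oligodendrocyte-like cells.

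St8sia4, the polysialyltransferase that leukocytes also use, was called higher in 7 of the leukocyte classes and lower in OPC-, oligodendrocyte-, microglia- and fibroblast-like cells; ILC2-like cells (47.1 and 54.6 CPM; -0.32) and border macrophage-like cells (0.49) were not called. Migratory dendritic cell-like cells had 432 CPM (87 UMIs) and 310 CPM (166 UMIs), a fold change of 3.18 ± 0.232 (edgeR, adjusted p = 1.95e-09). B cell-like cells (193 and 299 CPM), NK cell-like cells (206 and 288 CPM) and T cell-like cells (108 and 162 CPM) were called higher at 2.14, 2.05 and 1.28, as were type 1 (90.5 and 121 CPM) and type 2 (91.5 and 114 CPM) dendritic cell-like cells at 1.28 and 1.27. The type 1 call was lost with cells thinned to 1000 UMIs, and its fold went down to 0.56 over the alternatives. Plasma cell-like cells had 64.2 and 103 CPM, near the 68.4 and 71.9 CPM of border macrophage-like cells that were not called; their call of 2.07 ± 0.21 (edgeR, adjusted p = 1.35e-07) fell to 0.62 without TMM factors and still passed. In OPC-like cells St8sia4 had 7 UMIs (5.60 CPM) in C-ON and 133 UMIs (17.6 CPM) in FMC_new, and it was called lower at -2.82 ± 0.342 (edgeR, adjusted p = 1.05e-06). Microglia-like cells (7.95 and 18.9 CPM) and fibroblast-like cells (10.4 and 14.3 CPM) were called lower at -2.08 and -2.66, the former lost at clustering resolution 1.6 (-0.44, edgeR, adjusted p = 0.251). Oligodendrocyte-like cells had the lowest level, 0.994 and 3.61 CPM, at -5.26 ± 0.378 (edgeR, adjusted p = 9.7e-10). In 10 of the 11 called classes the level was higher in FMC_new than in C-ON, migratory dendritic cell-like cells being the exception; the part of free RNA in this was not tested.

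St8sia2, the polysialyltransferase of the developing brain, was near the limit of detection at this depth. It had 16 UMIs in kept cells of C-ON and 98 in FMC_new. Neuron-like cells had 3 and 2 UMIs, or 10.9 and 11.6 CPM, and were called higher at 6.60 ± 1.31 (edgeR, adjusted p = 0.00141), a call that DESeq2 did not make. Fibroblast-like cells had 0 and 8 UMIs and a fitted value of 4.64 ± 1.05 (edgeR, adjusted p = 0.00372), which rests on FMC_new and was lost in DESeq2 and limma. OPC-like cells held 0 UMIs in C-ON, where 3 UMIs would be 2.40 CPM, and 1 UMI (0.133 CPM) in FMC_new. The levels of St8sia2 in 7 of the 14 tested classes were 0 in both libraries.

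St6gal1 was highest in antibody-making cells and in the oligodendrocyte lineage. Plasma cell-like cells had 151 CPM (660 UMIs) and 162 CPM (1920 UMIs), with a fold change of 3.64 ± 0.174 (edgeR, adjusted p = 1.33e-12) that was 2.18 without TMM factors, and B cell-like cells had 155 and 146 CPM (1.95 ± 0.223, edgeR, adjusted p = 2.59e-06). The CPM of these 2 classes overlapped. Oligodendrocyte-like cells had 117 and 118 CPM (1.58 ± 0.2, edgeR, adjusted p = 1.24e-06). OPC-like cells had 80.8 and 75.6 CPM; the call there (0.60 ± 0.228, edgeR, adjusted p = 0.0371) was lost under 7 of 14 alternatives, with a range of 0.08 to 1.13. The gene was called lower in neuron-like cells (7.26 and 5.78 CPM, from 2 and 1 UMIs), migratory dendritic cell-like cells (4.97 and 9.35 CPM) and NK cell-like cells (33.9 and 8.16 CPM), at -3.49, -2.21 and -1.51, and each of these 3 calls was lost only with thinned cells.

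Cmas, which activates sialic acid for all of these transferases, was counted at like levels in most classes. In 12 of the 14 classes its levels lay between 20.5 and 57.1 CPM in both libraries. Neuron-like cells, with 145 CPM (40 UMIs) and 69.4 CPM (12 UMIs), were called higher at 0.95 ± 0.267 (edgeR, adjusted p = 0.00774), a call lost with thinned cells and in limma (adjusted p up to 1 over the alternatives). Migratory dendritic cell-like cells, with 4.97 CPM (1 UMI) and 20.6 CPM (11 UMIs), were called lower at -1.17 ± 0.398 (edgeR, adjusted p = 0.046), a call lost under 5 of the 11 alternatives that gave a value, DESeq2 and thinning among them. Plasma cell-like cells had 38.4 and 28.1 CPM, inside the range of the other classes; their call of 1.22 ± 0.184 (edgeR, adjusted p = 2.79e-05) became -0.21 without TMM factors. OPC-like cells had 30.4 and 36.5 CPM, called lower at -0.65 ± 0.22 (edgeR, adjusted p = 0.0193), which was lost without TMM factors, with thinned cells and in limma.

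**Figure D2:**
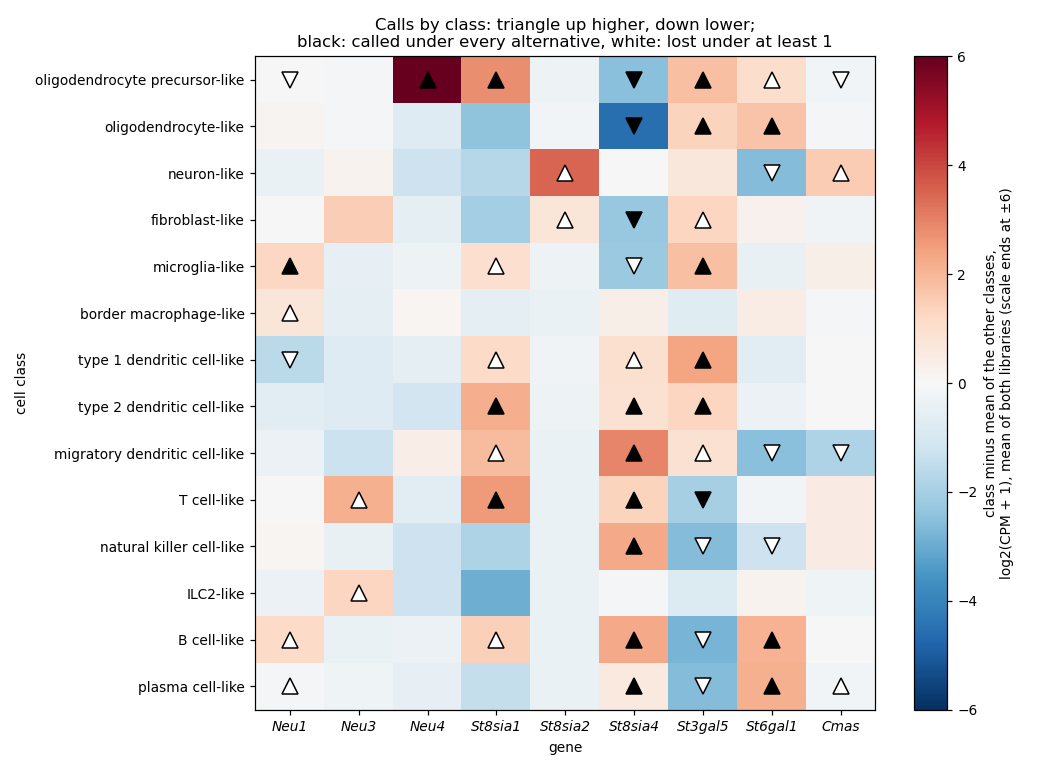
Difference of each member's log2(CPM + 1) between a class and the mean of the other 13 classes, as the mean of both libraries (color, with the scale ending at -6 and 6), with edgeR calls at an adjusted p under 0.05 as triangles that point up for higher and down for lower. Black triangles mark the 23 calls held under every alternative and white ones the 28 lost under at least 1. Neu4 is called in OPC-like cells only, while St8sia4 and St3gal5 are each called in 11 classes.

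In OPC-like cells 4 of the 9 members were called higher and 3 lower, where 31.3% of all genes tested were called higher and 14.2% lower. Without TMM factors the median fold change of all genes in this class moved by 0.495, the share of its calls that were higher went from 68.9% to 89.7%, and the members called were 4 higher and 1 lower. Against that shift, Neu4, St8sia1 and St3gal5 stayed higher and St8sia4 stayed lower, and the Neu1 and Cmas calls were lost.

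Within the lineage, OPC-like cells were compared directly with oligodendrocyte-like cells, their mature counterpart. Neu4 differed by 9.91 ± 0.549 (edgeR, adjusted p = 6.85e-10) and St8sia1 by 6.12 ± 0.43 (edgeR, adjusted p = 2.5e-09), both higher in OPC-like cells. St8sia4 was low in both but higher in OPC-like cells by 2.27 ± 0.398 (edgeR, adjusted p = 9.33e-05). The leukocyte gene Ptprc went the same way, with 32.8 and 65.5 CPM in OPC-like and 2.37 and 11.2 CPM in oligodendrocyte-like cells. The part of leukocyte RNA or doublets in the St8sia4 difference was not tested. St6gal1 was lower in OPC-like cells at -0.91 ± 0.296 (edgeR, adjusted p = 0.0154), a difference that did not pass without TMM factors or in limma. The remaining members did not pass: St3gal5 differed by 0.13 ± 0.337 (edgeR, adjusted p = 0.789), Cmas by -0.31 ± 0.267 and Neu1 by -0.48 ± 0.249, while Neu3 and St8sia2 rest on few UMIs. These 3 higher and 1 lower calls stand beside 32.1% and 17.3% of all genes called higher and lower in the same comparison.

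In the immune and stromal classes the members' counts were read against the share of all genes called. Microglia-like cells had 3 members higher (Neu1, St3gal5, St8sia1) and 1 lower (St8sia4), beside 20.2% and 7.48% of all genes. Border macrophage-like cells had only Neu1 called, 1 higher and 0 lower, beside 18.1% and 5.64%. Type 1 dendritic cell-like cells had 3 higher and 1 lower, beside 19.2% and 6.09%, and type 2 cells 3 higher and 0 lower, beside 20.2% and 4.84%; St3gal5, St8sia1 and St8sia4 were the higher members in both. Migratory dendritic cell-like cells had the same 3 genes higher and 2 lower (St6gal1, Cmas), beside 13% and 5.70%. Fibroblast-like cells had 2 higher (St3gal5, St8sia2) and 1 lower (St8sia4), beside 24.8% and 11.5%.

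B cell-like cells had 4 members higher (Neu1, St8sia1, St8sia4, St6gal1) and 1 lower (St3gal5), beside 10.7% and 3.05% of all genes. Plasma cell-like cells had 4 higher (Neu1, St8sia4, St6gal1, Cmas) and 1 lower (St3gal5), beside 20.8% and 6.89%, and without TMM factors the median of all genes moved there by -1.44. T cell-like cells had 3 higher (Neu3, St8sia1, St8sia4) and 1 lower (St3gal5), beside 22.7% and 7.37%. NK cell-like cells had 1 higher (St8sia4) and 2 lower (St3gal5, St6gal1), beside 12.4% and 5.00%, and ILC2-like cells 1 higher (Neu3) and 0 lower, beside 5.64% and 1.81%. St3gal5 was thus called lower in the 4 classes of B, plasma, T and NK cells, and St8sia4 higher in the same 4. Oligodendrocyte-like cells had 2 higher (St3gal5, St6gal1) and 1 lower (St8sia4), beside 31.7% and 18.8%, and neuron-like cells 2 higher (St8sia2, Cmas) and 1 lower (St6gal1), beside 19.8% and 19.2%.

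The members also varied among clusters within a class, given here without a test because clusters came from the same cells. OPC-like cells fell into cluster 8 (197 and 900 cells), led by C1ql1 and Pdgfra, and cluster 19 (18 and 465 cells), led by Gpr17, a receptor of precursors that begin to differentiate. Neu4 was 455 and 444 CPM in cluster 8 and 92.8 and 221 CPM in cluster 19; in FMC_new the share of cells with a UMI was 81.2% against 35.9%, and 34.1% against 18.7% at 1000 UMIs per cell. Cluster 19 had a median of 2101 UMIs per cell in FMC_new against 6265 in cluster 8, and the part of depth in the difference beyond thinning was not tested. St8sia1 was 38.5 and 45.0 CPM in cluster 8 and 27.8 and 16.9 CPM in cluster 19, whereas St8sia4 went the other way, from 3.50 and 14.1 CPM to 27.8 and 30.2 CPM. The values of C-ON in cluster 19 come from 18 cells.

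Microglia-like cells came from cluster 5 (175 and 1116 cells), led by Il1a, P2ry12 and Tmem119, and cluster 14 (43 and 591 cells). In cluster 14, 5 of the microglia markers were counted, but its leading genes held C1qa, C1qb and C1qc of the macrophage list and no microglia marker, so its leading genes go against its name; its median was 1404 and 1716 UMIs per cell, against 5508 and 5874 in cluster 5. Cluster 5 alone had 58.0 and 61.6 CPM of Neu1, 91.2 and 88.3 CPM of St3gal5, 12.8 and 12.2 CPM of St8sia1 and 8.52 and 20.4 CPM of St8sia4. Cluster 14 had 94.0 CPM of Neu1 from 8 UMIs and 24.8 CPM from 31 UMIs, and 11.8 CPM of St3gal5 from 1 UMI and 32.0 CPM from 40 UMIs. Malat1, a nuclear RNA, made up 0.257% and 0.0682% of UMIs in cluster 14, against 0.633% and 0.51% in cluster 5, and the part of RNA quality and depth in the difference was not tested. Without cluster 14, an alternative chosen after seeing the data, the microglia-like calls were Neu1 1.265, St3gal5 1.985, St8sia1 1.51 and St8sia4 -2.03, each still called by edgeR, and none of the 51 calls was lost.

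Among T cell-like cells, cluster 20 (75 and 338 cells; Grap2 and Themis lead) had 166 and 140 CPM of St8sia1, against 3.69 to 40.2 CPM in the other 3 clusters. The same cluster had 380 and 584 CPM of St8sia4, against 83.2 to 148 CPM in the others. Cluster 20 also had the larger share of Malat1 at 1.30% and 1.05% of UMIs. Plasma cell-like cluster 25 (52 and 244 cells) had 352 and 295 CPM of St6gal1 and 314 and 252 CPM of St8sia4, against 126 and 124 CPM and 33.3 and 60.4 CPM in cluster 6. Malat1 made up 1.28% and 0.82% of UMIs in cluster 25 and 0.42% and 0.29% in cluster 6. In oligodendrocyte-like cells, St6gal1 was highest in cluster 11 (215 and 206 CPM) and lowest in cluster 12 (57.3 and 37.1 CPM), whose leading genes were the pituitary hormones Prl and Gh, both at 0 UMIs in the oligodendrocyte-like cells of C-ON, so that these leading genes describe FMC_new alone, and St3gal5 was highest in cluster 1 (84.1 and 96.5 CPM). Cluster 11 had 2.01% and 1.44% of its UMIs from Malat1, above the other oligodendrocyte-like clusters. Cluster 12 had the lowest share of Malat1 among them, 0.44% and 0.26%, and the lowest medians, 2393 and 2031.5 UMIs per cell, against medians of 6017 to 10120 in the others. The part of nuclear RNA and of depth in these differences was not tested.

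**Figure D3:**
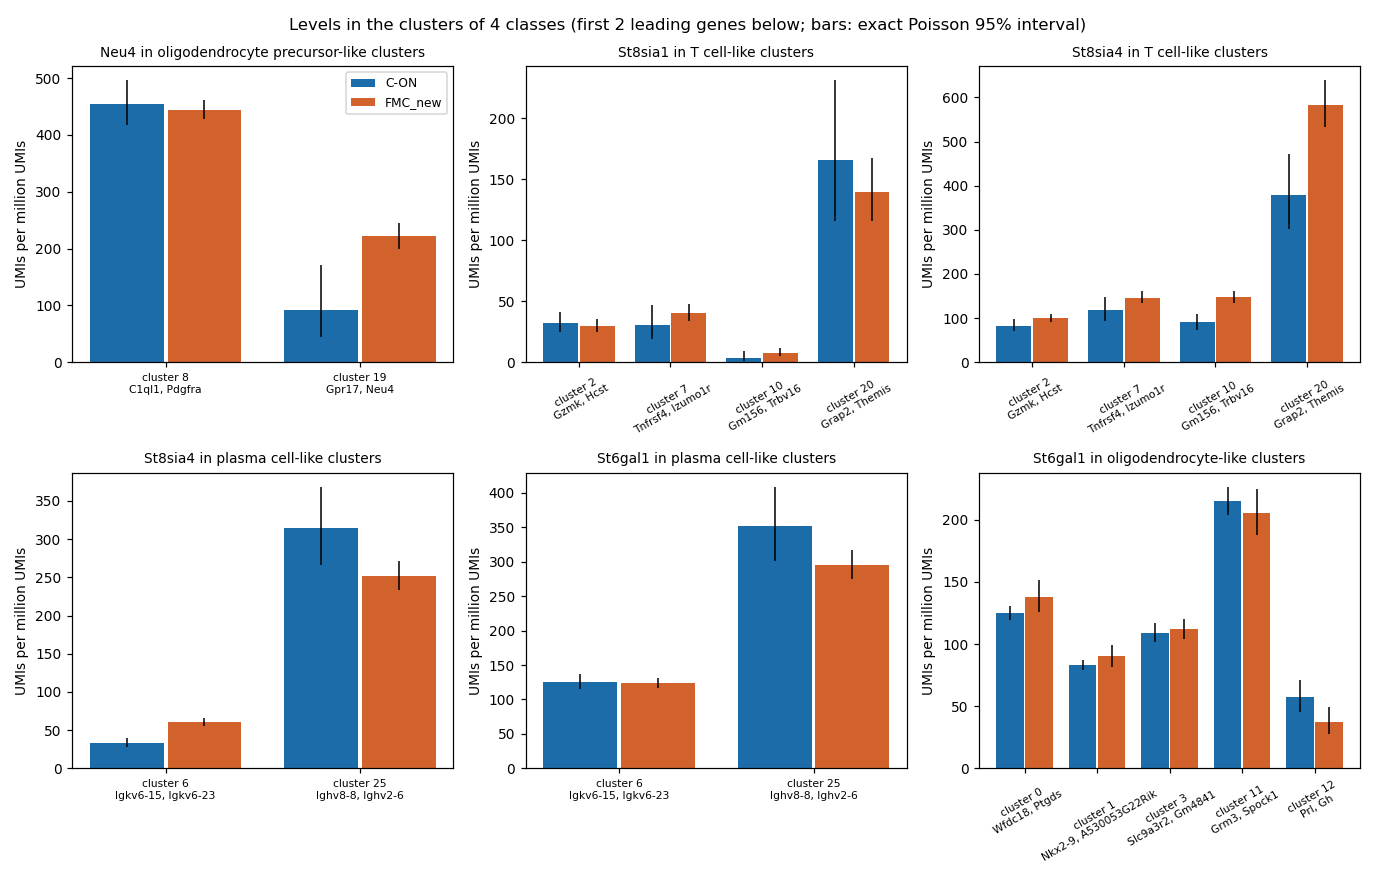
Level (CPM, linear axis from 0) of Neu4, St8sia1, St8sia4 and St6gal1 in the clusters of 4 classes, with 1 bar for each library, black lines for the exact Poisson 95% interval and the first 2 leading genes under each cluster. Neu4 lies at 455 and 444 CPM in OPC-like cluster 8 and at 92.8 and 221 CPM in cluster 19, and St8sia1 at 166 and 140 CPM in T cell-like cluster 20.

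For each member, the genes with the most similar level over the 31 sums of a class in a library were found among 15743 genes, by Pearson's r of log2(CPM + 1). The sums share libraries and depth, so r is a description. Neu4 was most like A930009A15Rik (r = 0.971), Inava (0.961) and C1ql1 (0.951), the last a leading gene of the OPC-like class. St8sia4 was most like Cytip (0.831), Clec2i (0.814) and Lsp1 (0.814), and Neu1 like Tlr7 (0.721), Cradd (0.664) and Kansl1l (0.657). St8sia1 was most like Tnfaip8l1 (0.80), Lpcat1 (0.703) and Gm17089 (0.69), and St3gal5 like Nav1 (0.803), Atp6v1g1 (0.758) and Dnajb14 (0.733). St6gal1 was most like Bfsp2 (0.79), Enpp1 (0.788) and Phgdh (0.787), and Cmas like Ccdc84 (0.817), Ccdc28a (0.787) and Smarcal1 (0.782). For Neu3 (Actn2, 0.776; 9030624G23Rik, 0.767; Trav6-3, 0.731) and St8sia2 (Spata17, 0.946; Pcdh18, 0.945; Gm38165, 0.943) few UMIs stand behind the values, and these matches say little.

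Of the 38 other genes listed for the pathway, 37 were tested, Neu2 being too low. In OPC-like cells 9 were called higher and 7 lower, beside 31.3% and 14.2% of all genes, against 16 higher and 3 lower without TMM factors and 9 and 10 with DESeq2. Of the 14 other sialyltransferases tested, 5 were called higher. Of the pathway genes, Cmah, Npl, Nrp2, Renbp, St3gal6, St6gal2, St6galnac1, St6galnac5, St8sia3 and St8sia5 were at 0 in both libraries of at least 1 tested class, so their fitted folds also depend on the prior count; with DESeq2 the fold in OPC-like cells was 6.17 for St6gal2 and 1.995 for Npl, and in T cell-like cells 1.41 for Cmah. St6gal2, which like St6gal1 caps galactose, had 19.2 and 25.1 CPM in OPC-like cells and at most 0.383 CPM in oligodendrocyte-like cells, with a fold change of 8.06 ± 0.464 (edgeR, adjusted p = 1.29e-08). St8sia3 (33.6 and 39.2 CPM; 5.36), St8sia5 (12.0 and 2.78 CPM; 2.24, not called by DESeq2), St3gal6 (45.6 and 60.4 CPM; 1.25) and St6galnac6 (25.6 and 11.7 CPM; 1.08) were the others. The carriers of polysialic acid Ncam1 (932 and 650 CPM; 3.27) and Cadm1 (341 and 256 CPM; 2.16) were higher, as were the lactosylceramide synthase B4galt6 (67.2 and 54.6 CPM; 2.29) and Npl, which breaks down sialic acid (3.999 and 12.2 CPM; 2.76). St3gal1 (3.20 and 3.98 CPM; -3.31), St8sia6 (-1.90) and the second lactosylceramide synthase B4galt5 (-1.39) were lower under each scaling, whereas Ugcg (-0.87), Ctsa, the cathepsin A partner of Neu1 (-0.78), B4galnt1 (-0.77) and Nans (-0.48, 0.016 without TMM factors) were not called without TMM factors. Against oligodendrocyte-like cells, 18 were higher and 7 lower, beside 32.1% and 17.3% of all genes. The lower ones included St6galnac3 (201 and 64.0 CPM against 596 and 591 CPM), St3gal4, St3gal3, Ctsa and St8sia5. St8sia5 was thus higher than the mean of the other classes in OPC-like cells, yet lower than in oligodendrocyte-like cells, where its fold was 4.89. Ncam1 and Cadm1 had folds of 3.70 and 0.72 in oligodendrocyte-like cells.

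**Figure D4:**
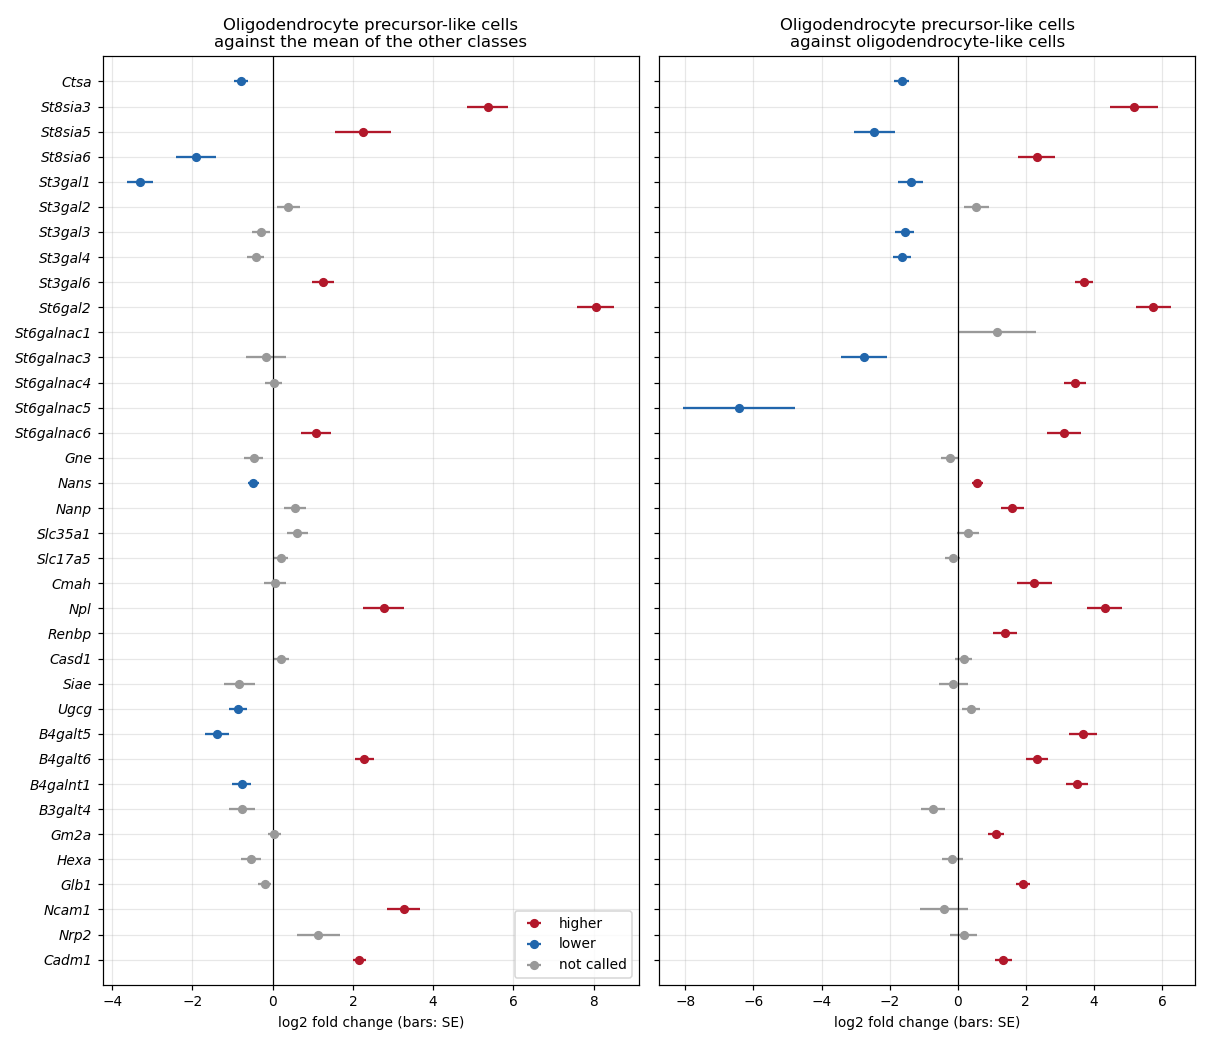
Log2 fold change ± standard error of the pathway genes reported here in OPC-like cells, against the mean of the other classes (left) and against oligodendrocyte-like cells (right), by edgeR, with genes called higher in red, lower in blue and not called in grey. The left panel leaves out St6galnac1, St6galnac5 and Renbp, whose standard error could not be given; St6gal2 stands at 8.06 on the left.

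In the other classes, the pathway genes are given as counts of the 37 tested, beside the shares of all genes called higher and lower, and the 3 largest folds among those called higher are named. Counts were 14 higher and 3 lower in microglia-like cells (20.2% and 7.48% of all genes), 19 and 2 in border macrophage-like cells (18.1% and 5.64%), 11 and 4 in type 1 (19.2% and 6.09%), 12 and 1 in type 2 (20.2% and 4.84%) and 7 and 4 in migratory dendritic cell-like cells (13% and 5.70%). They were 7 and 1 in B cell-like cells (10.7% and 3.05%), 11 and 7 in plasma cell-like cells (20.8% and 6.89%; 7 and 17 without TMM factors), 11 and 6 in T cell-like cells (22.7% and 7.37%), 6 and 7 in NK cell-like cells (12.4% and 5.00%) and 3 and 2 in ILC2-like cells (5.64% and 1.81%). Oligodendrocyte-like cells had 8 and 12 (31.7% and 18.8%), neuron-like cells 8 and 11 (19.8% and 19.2%) and fibroblast-like cells 9 and 9 (24.8% and 11.5%). With DESeq2 the counts were 11 and 11 in T cell-like, 8 and 19 in oligodendrocyte-like and 9 and 8 in type 1 dendritic cell-like cells. Without TMM factors they were 6 and 7 in migratory dendritic cell-like and 13 and 6 in fibroblast-like cells. In microglia-like cells Npl (31.8 and 29.8 CPM; 5.18) and Renbp (70.7 and 78.1 CPM; 3.82) were among the 3 largest, as were Npl (4.56) and Renbp (3.41) in border macrophage-like cells. In B cell-like cells Cmah, which converts the common sialic acid to its hydroxylated form (141 and 184 CPM; 5.53), St8sia6 (3.11) and St3gal6 (2.62) led, and in plasma cell-like cells Cmah (6.93), St8sia6 (3.92) and Gne (3.12) led. T cell-like cells were led by St6galnac1 (4.66), B4galnt1 (2.44) and Cmah (2.29), and NK cell-like cells by Ugcg (3.83), B4galnt1 (2.38) and B4galt5 (2.22), which act in ganglioside assembly. Type 1 dendritic cell-like cells had St6galnac1 (4.95), Gm2a (3.29) and Cadm1 (2.71), type 2 cells St6galnac1 (4.06), Gm2a (2.87) and St3gal1 (2.66), and migratory cells Nrp2, a polysialic acid carrier (3.19), Renbp (3.18) and St3gal1 (2.51). Oligodendrocyte-like cells were led by St8sia5 (4.89), Ncam1 (3.70) and St6galnac3 (2.81), neuron-like cells by St8sia3 (7.26), Npl (3.79) and St8sia6 (3.13), fibroblast-like cells by St6galnac5 (5.81), St6galnac1 (4.98) and Renbp (2.57), and ILC2-like cells by St6galnac3 (1.98), Glb1 (1.64) and B4galnt1 (1.07).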

How the data were processed

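The deposited files were raw UMI counts per gene and cell, which the authors made with Cell Ranger (7.2.0 per the labels and the file headers, while the study's methods name an earlier version) on mm10 from 10x 5′ libraries; versions differ in whether intronic reads are counted by default, and which setting was used was not given in the sources used here. Libraries were pools of optic nerves from which myelin and debris had been removed. Cells with 500 to 5000 genes, 500 to 20000 UMIs and under 5% mitochondrial UMIs were kept, as in the study, and clustered with Seurat 5.3.0 (R 4.3.3; 2000 variable features without the members and pathway genes, CCA integration, 30 components, resolution 0.8). Clusters were named from marker lists, with at least 3 markers counted. Scrublet (scanpy 1.11.5) marked 1 cell and is taken as not having worked, so no doublets were removed. Counts were summed per class and library (28 sums) and tested in 1 fit with edgeR 4.0.16 (filterByExpr, TMM, library as block, quasi-likelihood, Benjamini-Hochberg over 14889 genes, 13 residual degrees of freedom). The step was tested on simulated data first. Alternatives used DESeq2 1.42.0, limma 3.58.1, other scaling, filters, resolutions and features, and cells thinned to 1000 UMIs, which left out 611 cells. The 2 libraries come from separate pools, and a library's classes from the same pool, which is where the pairing by replicate number comes from. Members, gene lists and markers were chosen with earlier results of these data known. Named genes were the 9 members and the 3 genes most like each member. Pathway genes were named where called in OPC-like cells, called lower there against oligodendrocyte-like cells, or among the 3 largest folds elsewhere. Gh served as a check for free RNA, and Ptprc is given beside St8sia4 as a leukocyte gene. The values of 1 pathway gene are not reported here, though counts over the list include it. St6galnac2 was left out because its symbol has 2 identifiers.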

Additional observations from a re-analysis of the deposited data

How the results depend on the processing

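Of the 51 calls, 23 held under every alternative that gave a value and 39 under all but limma and thinning. The alternative without cells marked by Scrublet removed 1 cell, which was in no named class, so its outcome was that of the main fit. Thinning to 1000 UMIs left 28 calls (23 higher, 5 lower), and limma, chosen after seeing the data, 24 higher and 19 lower; with classes of at least 50 cells the split was 30 and 23. With no replicate block there were 48 calls (34 higher, 14 lower), and 3 of the 51 were lost. Members called lower in OPC-like cells fell from 3 to 1 without TMM factors, when thinned and in limma. Signs changed for St3gal5 in migratory dendritic cell-like cells when thinned (-0.50) and for Neu1 (-0.12) and Cmas (-0.21) in plasma cell-like cells without TMM factors; the cause was not tested. As values of 1 library with no test (without replicate 1 or without replicate 2), the difference from the mean log2 level of the other classes ranged from -0.10 to 0.14 for Neu1 in OPC-like cells, from -0.35 to 0.16 for Neu1 and from -0.41 to 0.078 for Cmas in plasma cell-like cells, from -0.73 to 3.33 for Neu3 in ILC2-like cells, from -0.30 to 1.77 for St8sia2 in fibroblast-like cells and from -0.48 to 2.28 for St3gal5 in migratory dendritic cell-like cells. Thinning, by its construction, lowered the share of cells with a UMI, over both libraries: to 4.60% for Neu1 in microglia-like cells, 2.15% for Neu3 in ILC2-like cells, 30.2% for Neu4 and 3.53% for St8sia1 in OPC-like cells, 0% for St8sia2 in neuron-like cells, 26.9% for St8sia4 in migratory dendritic cell-like cells, 9.61% for St3gal5 in type 1 dendritic cell-like cells, 14.9% for St6gal1 in plasma cell-like cells and 7.27% for Cmas in neuron-like cells. Depth limits Neu3 and St8sia2, which could not be tested in thinned cells. Leaving out the 884 and 1682 cells with the highest Scrublet scores and taking unnamed clusters as classes, both chosen after seeing the data, lost 3 calls each, and leaving cluster 14 out of the microglia-like class lost 0.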

Other observations

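Classes with under 20 cells in C-ON were outside the test and are given as values. Pituitary endocrine-like cells of FMC_new (1727 cells) had 68.9 CPM of St3gal5, 58.5 CPM of Cmas and 46 UMIs of St8sia2, the most St8sia2 UMIs of any class. In cluster 15 of that class St3gal5 was 100.9 CPM, against 28.4 CPM in cluster 23. Neutrophil-like cells of FMC_new (130 cells) had 147 CPM of St3gal5 and 95.4 CPM of St8sia4. Astrocyte-like cells of FMC_new (243 cells) had 7 UMIs of St8sia2 (7.60 CPM) and 3 of Neu4 (3.26 CPM). Among unnamed cells, cluster 26, led by Folr1 and Mia, had 18.4 CPM of St8sia2 from 29 UMIs in FMC_new, and cluster 24, led by the cell cycle genes Ube2c and Birc5, had 18.3 CPM of Neu4 in FMC_new and 0 UMIs in 44 cells of C-ON.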
